A study of Mus musculus with 12 samples.

Results

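The livers of mice that received an ANGPTL8 virus, of either kind, were compared with the livers of mice that received the matching control virus. All 12 libraries of the study entered this comparison, 6 against 6, and each library is the liver RNA of wild-type (WT) mice after 9 days of adenovirus, which the study's title describes as chow mice. The overexpression arm held 3 libraries with a control virus (Ad_GFP) and 3 with a virus for ANGPTL8 overexpression (ANG8). The knockdown arm held 3 libraries with a shControl virus (shCtrl) and 3 with a virus for ANGPTL8 knockdown (shANG8). All 4 groups therefore carried an adenovirus, and no group went without one. The age, sex and strain of the mice, the virus dose, the hairpin, the species of the overexpressed ANGPTL8 and whether a library is 1 mouse or a pool are not stated, so p-values measure the spread between these libraries. The arm entered the model as a block, so that each ANGPTL8 virus was read against its own control. Of 14686 genes tested, 60 passed at an adjusted p under 0.05 for the shift common to both arms, and 51 of these shifted alike, which here means in the same direction with the smaller arm effect at least 0.5 times the larger on the log2 scale. These 51 genes were chosen by the values described, so their likeness between arms is a description.

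ANGPTL8 is a hormone-like protein of liver and fat that binds ANGPTL4 and bears on the activity of lipoprotein lipase, the enzyme that releases fatty acids from circulating triglyceride. Overexpression and knockdown are meant to move ANGPTL8 in opposite directions, so a gene that shifted alike in both arms did not follow the direction of Angptl8. Many of the genes described here are ribosomal: the 18S ribosomal RNA (rRNA), a structural part of the small ribosomal subunit, and genes and processed pseudogenes of ribosomal proteins. A processed pseudogene is a copy of a spliced messenger RNA that was written back into the genome. Its sequence can be so close to that of the parent gene that a short read cannot be placed with certainty.

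The sequences that carry these results are shown here as annotated in GENCODE vM21 (GRCm38), 5′ to 3′. The first is the start of the transcript of CT010467.1 (chr17:39846353-39848827, minus strand), annotated as rRNA. Capitals mark the first 9 bases, whose reverse complement, GGATCATTA, is the 3′ end of 18S rRNA, so the transcript is annotated antisense to it.
CT010467.1: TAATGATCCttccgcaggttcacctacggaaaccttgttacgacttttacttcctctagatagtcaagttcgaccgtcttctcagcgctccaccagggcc
The second is the whole of Gm23935 (chr16:11144125-11144181, plus strand), a locus of 57 bases annotated as a miRNA that was kept in the list of rRNA loci.
Gm23935: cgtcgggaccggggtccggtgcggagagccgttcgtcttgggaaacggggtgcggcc
The next pairs show a gene that was called and the coding sequence of its parent, in the stretch of 60 aligned bases that holds the most differences. Capitals mark the bases that differ between the pair. BC002163 (chr16:42955631-42955949, plus strand) matched the coding sequence of Ndufs5 (chr4:123712710-123718202, minus strand) at 99.4% of 318 aligned bases, with 2 mismatches in all.
BC002163: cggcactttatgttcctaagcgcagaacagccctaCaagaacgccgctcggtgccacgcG
Ndufs5: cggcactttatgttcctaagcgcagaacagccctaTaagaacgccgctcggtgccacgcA
Gm3362 (chr15:37943327-37943792, minus strand) matched the coding sequence of Rpl23a (chr11:78180932-78183584, minus strand) at 99.1% of 466 aligned bases, with 4 mismatches, all inside the stretch shown.
Gm3362: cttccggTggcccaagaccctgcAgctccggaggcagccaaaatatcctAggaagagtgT
Rpl23a: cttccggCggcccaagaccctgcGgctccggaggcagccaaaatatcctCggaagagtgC
Rpl27-ps1 (chr1:171305087-171305494, minus strand) matched the coding sequence of Rpl27 (chr11:101442298-101445529, plus strand) at 98.8% of 408 aligned bases, with 5 mismatches, 3 of them in the stretch shown.
Rpl27-ps1: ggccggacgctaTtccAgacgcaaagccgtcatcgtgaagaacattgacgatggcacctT
Rpl27: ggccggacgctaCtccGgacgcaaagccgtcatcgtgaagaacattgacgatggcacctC
Rpl10-ps3 (chr9:50344201-50344968, minus strand) matched the coding sequence of Rpl10 (chrX:74270812-74273135, plus strand) over all 642 bases with 0 mismatches, and 1 line stands for both.
Rpl10-ps3: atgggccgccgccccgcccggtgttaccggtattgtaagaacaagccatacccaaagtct

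The 12 libraries held 12537083 to 15144312 counts. Along the first principal component, which held 37.2% of the variance, the ANG8 libraries stood apart at 65.1 to 70.5, against -51.6 to 10.6 for the other 9. Mitochondrial genes held 27.1% ± 7.58 of the Ad_GFP counts and 35.1% ± 11.2 of the ANG8 counts, and 23.5% ± 0.68 of the shCtrl counts against 21.6% ± 2.0 of the shANG8 counts (SD, n = 3). Over both arms this share was 3.08 percentage points higher with the ANGPTL8 viruses (exact two-sided permutation test within arms, p = 0.5, smallest possible p 0.005). The 20 hepatocyte markers, such as Alb and Ttr, were at a summed 63000 to 90400 CPM in Ad_GFP, 35200 to 66900 in ANG8, 84400 to 111000 in shCtrl and 81300 to 112000 in shANG8, and 0 of them was at 0 in all libraries. Of the 20, 12 were called lower in the overexpression arm, beside 938 of all 14686 tested genes. In the knockdown arm 0 of the 20 were called, and 0 for the common effect. Of all tested genes 0.191% and 0.409% were called so, and at such shares 0 of 20 tells little. The part of the lower hepatocyte markers in the falls of liver genes described here was not tested.

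CT010467.1 was higher with both ANGPTL8 viruses. It was at 287, 289.6 and 287 CPM in the Ad_GFP livers, 1474, 1501 and 1638 in the ANG8 livers, 656, 336 and 321 in the shCtrl livers and 1391, 1743 and 2197 in the shANG8 livers, where CPM are counts relative to the library's total after TMM scaling in edgeR. All 6 libraries of the ANGPTL8 viruses were above all 6 of the control viruses, and the highest control library was shCtrl replicate 1. The common difference was 2.22 on the log2 scale (SE 0.21, edgeR adjusted p = 2.33e-05), from 2.42 in the overexpression arm and 2.02 in the knockdown arm. The 2 arm effects did not pass the test of their difference (adjusted p = 0.562). The exact two-sided permutation test within arms gave p = 0.005, the smallest that its 400 relabelings allow. In raw terms this gene took 0.0275% to 0.0662% of the counts in the control libraries and 0.128% to 0.213% in the ANGPTL8 libraries. The gene was called in all 20 settings in which it was tested, and its value ranged from 2.16 to 2.42 when 1 library was left out. CT010467.1 was chosen with earlier results of these same libraries known. Its p-values and settings therefore describe the values that led to its choice and are no separate support. How rRNA was removed from the libraries is not stated in the labels, and its part in this result was not tested.

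Of the 6 tested loci in the list of rRNA and rRNA-overlapping loci, 3 rose and 0 fell, and these 3 include CT010467.1 itself. Across all tested genes, 0.177% rose by the same rule. Lars2, the mitochondrial leucyl-tRNA synthetase, was at 168, 272 and 189 CPM in the Ad_GFP livers, 567, 657 and 465 in the ANG8 livers, 286, 142 and 158 in the shCtrl livers and 363, 605 and 547 in the shANG8 livers (log2 fold change 1.4, SE 0.21, adjusted p = 0.00283). Its lowest ANGPTL8 library was above the highest control library of its arm in both arms. Gm23935 was at 688, 1167 and 786 CPM in the Ad_GFP livers, 2311, 2832 and 1869 in the ANG8 livers, 1220.1, 667 and 410.1 in the shCtrl livers and 1421, 2246 and 1804 in the shANG8 livers (log2 fold change 1.33, SE 0.25, adjusted p = 0.0231), again with no overlap within either arm. Gm26917, whose annotated span on chromosome 17 (39843013 to 39846341, plus strand) ends just before that of CT010467.1, did not follow. It was at 371, 416 and 401 CPM with Ad_GFP and 602, 418 and 649.7 with ANG8, and at 343, 342 and 259.9 with shCtrl and 276, 382 and 249 with shANG8 (log2 fold change 0.22, SE 0.17, adjusted p = 0.639). The mitochondrial rRNAs mt-Rnr1 and mt-Rnr2 had common differences of 0.29 (SE 0.23, adjusted p = 0.638) and 0.42 (SE 0.25, adjusted p = 0.506), with overlapping libraries in both arms. The tests were made with edgeR's quasi-likelihood method and Benjamini-Hochberg adjustment over all tested genes, as were all adjusted p-values that follow.

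**Figure D1:**
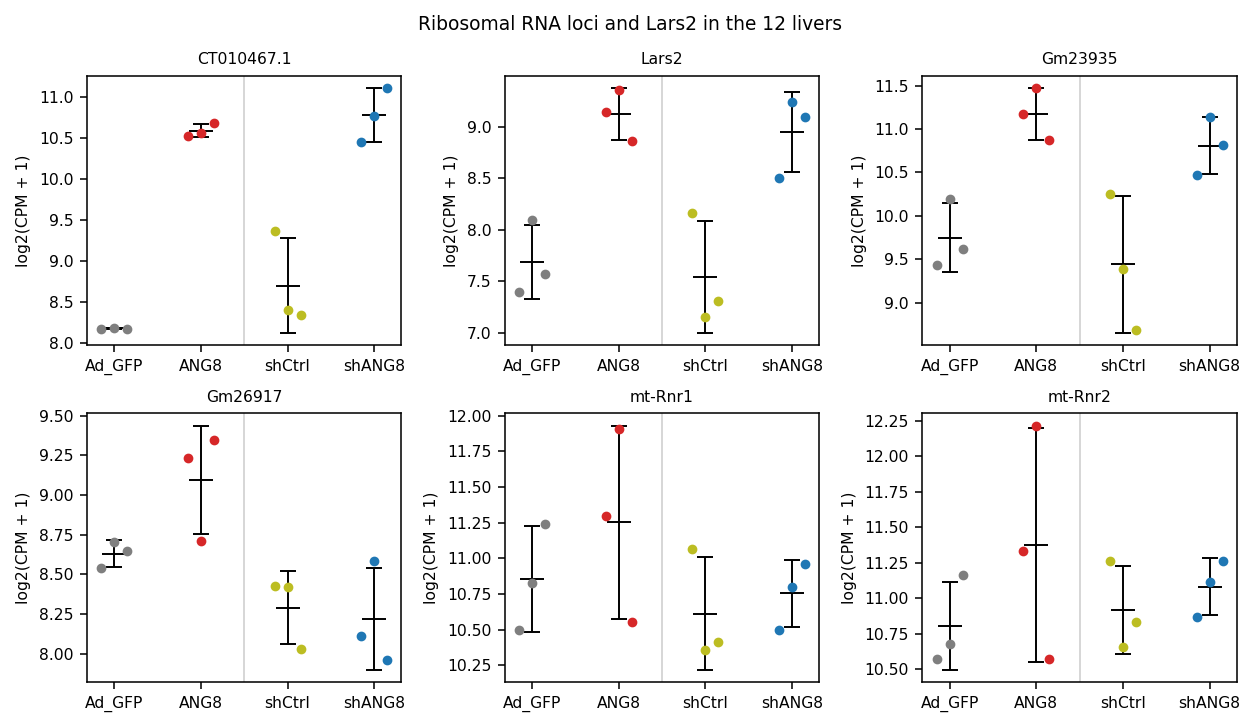
Levels of CT010467.1, Lars2, Gm23935, Gm26917, mt-Rnr1 and mt-Rnr2, as log2(CPM + 1) on the vertical axis, in the 4 groups (points, single libraries; bars, mean ± SD, n = 3; the vertical axes differ between panels). In the 3 upper panels both ANGPTL8 groups lie above their own control group, while in the lower panels the groups overlap in the knockdown arm.

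Of the 60 genes called, 26 rose (0.177% of all tested) and 34 fell (0.232%), in all 0.409% of the genes tested. All 60 moved in the same direction in both arms, against 45.8% of all tested genes, and the call itself favours such genes. Of the 60, 21 rose and 33 fell with no overlap between ANGPTL8 and control libraries in either arm. Among all tested genes such a separation was met by 0.79% upward and 1.01% downward, and by 2.98% in opposite directions. The 51 genes that shifted alike were 19 that rose and 32 that fell, or 0.347% of all tested, and 59 or 35 genes met the rule when the smaller arm effect had to reach 0.25 or 0.75 times the larger. The median size of the 60 changes was 1.33 on the log2 scale, and 43 were at least 2-fold. In the fit of all 12 libraries with 1 mean per group, 59 of the 60 passed in the overexpression arm (13.5% of all tested) and 22 in the knockdown arm (0.191%). These 22 passed in both. With each arm fitted alone, 56 and 18 of the 60 were called. The 60 were chosen from the same libraries, so these counts are no separate support. The test of the difference between arms was passed by 2 of the 60, Bak1 and Actg1, against 6.62% of all tested genes. On either side of the threshold stood Hmox1 (adjusted p = 0.0487) and Evl, Gpx4 and Cyp2c69 (adjusted p = 0.0573 each). The count depended on the settings: it was 355 with DESeq2 (2.42% of all tested), 74 with voom (0.504%) and 173 without shANG8 replicate 2, which held 60, 53 and 58 of the 60.

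**Figure D2:**
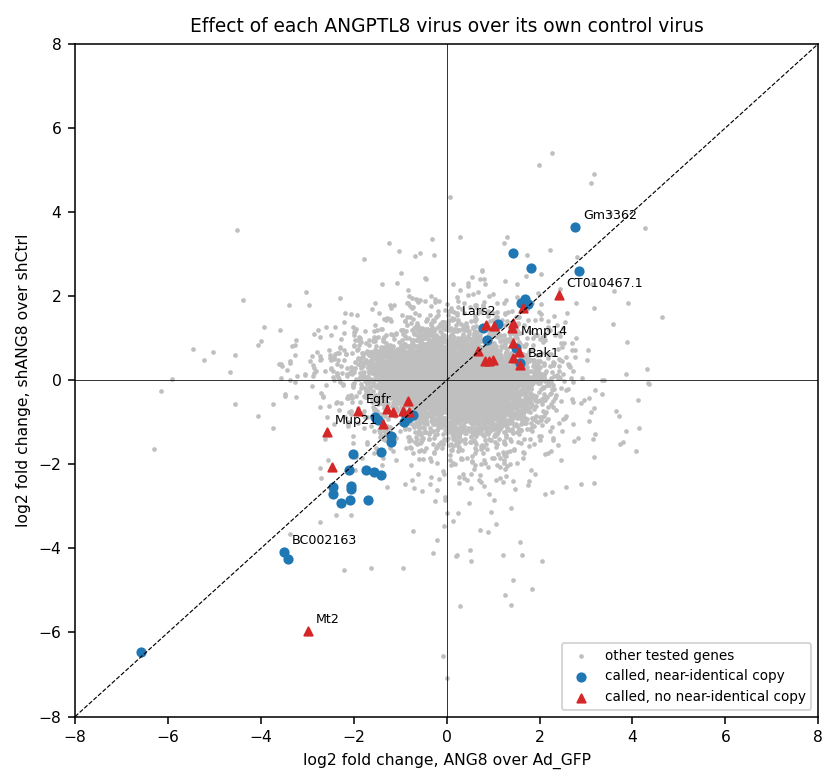
Log2 fold change of each of the 14686 tested genes in the overexpression arm (horizontal) and the knockdown arm (vertical). The 60 called genes all lie in the lower left or upper right part of the plot (circles, genes with a near-identical copy; triangles, genes without), and the dashed line marks equal effects.

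Most of the genes that shifted alike were near-identical copies of other genes. A copy was defined by an alignment of at least 100 bases at 95% identity or more that covered at least 50% of the shorter transcript. Genes annotated as rRNA, miRNA or another small RNA were left out of the search, and so count as without a copy. By this rule 36 of the 60 called genes had a copy, 12 that rose and 24 that fell, and they belonged to 30 families. These were 2.52% of the 1427 tested genes with a copy, while the 24 others were 0.181% of the 13259 without. By annotation, 26 called genes were pseudogenes (4.10% of 634 tested) and 31 were protein-coding (0.241% of 12843). Of 81 tested pseudogenes described as ribosomal protein pseudogenes, 2 rose and 7 fell, 11.1% in all. The families were formed after the data were seen, and these shares are given with no test.

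BC002163, the pseudogene of the complex I subunit gene Ndufs5 shown above, had the smallest p-value. It was at 7.53, 9.03 and 6.19 CPM in the Ad_GFP livers, 0.797, 0.656 and 0.546 in the ANG8 livers, 6.31, 6.63 and 6.31 in the shCtrl livers and 0.455, 0.157 and 0.492 in the shANG8 livers (log2 fold change -3.76, SE 0.28, adjusted p = 4.04e-06). The control libraries of both arms lay close together, and every ANGPTL8 library was below 1 CPM. Its parent Ndufs5 was at 107, 88.8 and 101 CPM with Ad_GFP and 67.4, 50.8 and 98.9 with ANG8, and at 92.3, 82.5 and 105 with shCtrl and 93.3, 79 and 119.5 with shANG8 (log2 fold change -0.2, SE 0.17, adjusted p = 0.668). BC002163 therefore took 7.18% ± 1.82 and 6.5% ± 0.892 of the counts of this pair in the control groups, and 0.997% ± 0.392 in ANG8 and 0.365% ± 0.148 in shANG8 (SD, n = 3).

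Rpl10-ps3, whose coding stretch has the same letters as Rpl10, a protein of the large ribosomal subunit, was at 22, 29.1 and 24 CPM in the Ad_GFP livers, 2.03, 1.72 and 3.15 in the ANG8 livers, 21.2, 30.8 and 31.5 in the shCtrl livers and 2.73, 0.393 and 1.2 in the shANG8 livers (log2 fold change -3.82, SE 0.31, adjusted p = 1.76e-05). All 6 ANGPTL8 libraries were under 4 CPM, and all 6 control libraries were above 20. Rpl10 ranged from 472 to 817 CPM over the 12 libraries, with a common difference of 0.05 (SE 0.14, adjusted p = 0.926). The share of Rpl10-ps3 in the counts of its 10-gene family was 4.44% ± 1.19 in Ad_GFP and 4.1% ± 0.721 in shCtrl, against 0.414% ± 0.0833 in ANG8 and 0.195% ± 0.134 in shANG8. With the counts of the family summed, the common difference was -0.02 (SE 0.14, adjusted p = 0.968).

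Gm3362 moved the other way. This pseudogene of Rpl23a, a protein of the large subunit, was at 2.09, 1.78 and 1.21 CPM in the Ad_GFP livers, 9.56, 8.85 and 16.4 in the ANG8 livers, 1.22, 1.09 and 1.29 in the shCtrl livers and 16.8, 8.18 and 20.1 in the shANG8 livers (log2 fold change 3.19, SE 0.28, adjusted p = 1.76e-05). The highest control library was at 2.09 CPM and the lowest ANGPTL8 library at 8.18 CPM. Rpl23a itself had a common difference of -0.02 (SE 0.18, adjusted p = 0.975), and the share of Gm3362 in the family went from 1.07% ± 0.284 in Ad_GFP to 6.08% ± 0.772 in ANG8, and from 0.712% ± 0.0569 in shCtrl to 8.79% ± 1.67 in shANG8. Gm10335, another copy of Rpl23a, also rose (log2 fold change 1.78, SE 0.26, adjusted p = 0.00239).

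Gm11361, annotated as protein-coding and nearly identical to Rps18, a protein of the small subunit, was at 32.1, 31.4 and 36.5 CPM in the Ad_GFP livers, 10.1, 10.2 and 9.58 in the ANG8 livers, 30.5, 42.9 and 39.5 in the shCtrl livers and 12.7, 7.24 and 5.84 in the shANG8 livers (log2 fold change -1.94, SE 0.18, adjusted p = 1.76e-05). Every ANGPTL8 library was below every control library. Rps18 ranged from 582 to 927 CPM and had a common difference of 0.18 (SE 0.14, adjusted p = 0.627). Gm6311, a copy of Rps2, fell (log2 fold change -1.89, SE 0.17, adjusted p = 1.76e-05), and Rps2-ps10, another copy in the same family, rose (log2 fold change 1.81, SE 0.32, adjusted p = 0.0138), while Rps2 had a common difference of 0.1 (SE 0.15, adjusted p = 0.827).

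**Figure D3:**
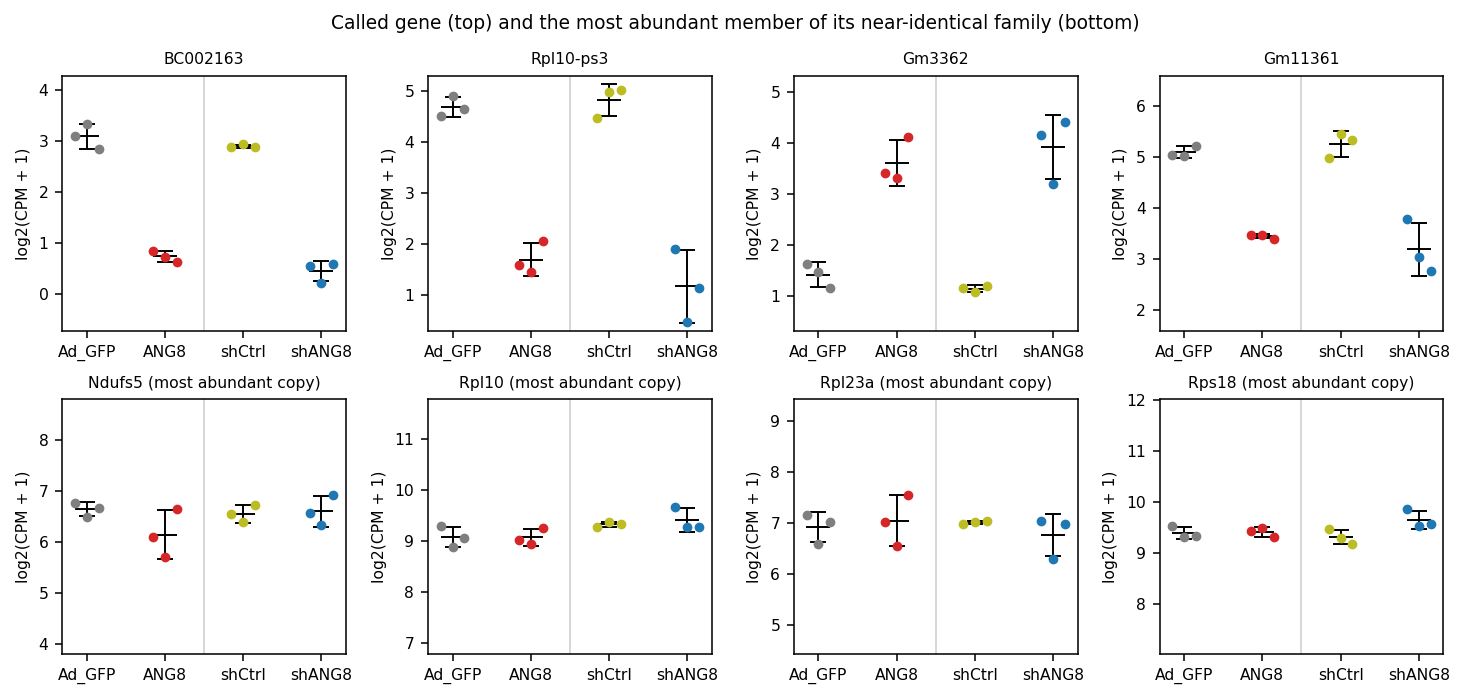
Levels of 4 called genes (top) and of the most abundant member of the same family (bottom), as log2(CPM + 1) on axes of equal span (points, single libraries; bars, mean ± SD, n = 3). BC002163, Rpl10-ps3 and Gm11361 are lower and Gm3362 is higher in both ANGPTL8 groups, while Ndufs5, Rpl10, Rps18 and Rpl23a vary over a narrower range.

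Other genes with a copy also fell. Rpl27-ps1 had no count in any library of an ANGPTL8 virus. It was at 1.39, 0.444 and 0.672 CPM in Ad_GFP (38 counts in all) and 0.814, 0.957 and 0.532 in shCtrl (33 counts). With a floor of 3 counts over each group it was at least 11.8-fold lower in the overexpression arm and at least 10.3-fold lower in the knockdown arm. The limit covers counting error only. The common effect of Rpl27-ps1 had an adjusted p of 0.0166 and its overexpression arm one of 0.0102, while its knockdown arm did not pass (adjusted p = 0.166). Rpl27 itself was between 274 and 407 CPM in every library, with a common difference of -0.21 (SE 0.13, adjusted p = 0.511). Further falls with no overlap in either arm were Rps12-ps4 (-2.32, SE 0.27), Rpl35a-ps2 (-2.26, SE 0.27), Gm14303 (-1.87, SE 0.21), Gm15772 (-1.26, SE 0.14) and Rps10-ps1 (-1.34, SE 0.19). Scp2-ps2, a copy of the sterol carrier protein gene Scp2, fell by 1.21 (SE 0.16, adjusted p = 0.00128). Amd2, a copy of the polyamine synthesis gene Amd1, was called at -2.42 (SE 0.45, adjusted p = 0.022). Other falls with a copy were those of Gm13192 (-2.58), Gm5561 (-2.27), Zbed5 (-1.22), Gm10221 (-0.96), Gm10177 (-0.86) and Rpsa-ps2 (-0.86). The most abundant other member of the family of Gm13192 was Rps28, which itself was called and rose by 0.91.

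Rises among the copies were fewer. Rpl14-ps1, a copy of the large subunit gene Rpl14, was at 29.2, 21 and 20.1 CPM in the Ad_GFP livers, 36.7, 41.6 and 43.1 in the ANG8 livers, 25.9, 30.3 and 27 in the shCtrl livers and 71.7, 61.7 and 62.9 in the shANG8 livers (log2 fold change 1.01, SE 0.13, adjusted p = 0.000791). All 6 ANGPTL8 libraries were above all 6 control libraries, and Rpl14 had a common difference of 0.01 (SE 0.13, adjusted p = 0.988). Gm15452, at under 3 CPM in every library, was called at 2.71 (SE 0.53) and Gm10709 at 2.24 (SE 0.35). Gm4149, Gm11703 and Gm6793, copies in the families of Rpl37a, Rpl21 and Hnrnpa3, rose by 1.72, 1.23 and 1.14.

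Rps28, a protein of the small subunit, and Gm10443, its processed copy, moved in opposite directions. Rps28 was at 35.4, 28.1 and 39.9 CPM in the Ad_GFP livers, 66.6, 54.7 and 67.3 in the ANG8 livers, 34.5, 51.9 and 32.5 in the shCtrl livers and 81.8, 86.2 and 62.4 in the shANG8 livers (log2 fold change 0.91, SE 0.14, adjusted p = 0.00587). Gm10443 was at 34.8, 26.4 and 16.8 CPM in the Ad_GFP livers, 9.2, 10.7 and 9.34 in the ANG8 livers, 36.5, 33.5 and 36.9 in the shCtrl livers and 11.5, 6.92 and 3.94 in the shANG8 livers (log2 fold change -1.83, SE 0.25, adjusted p = 0.00162). Rps28 took 54.4% ± 11.1 of the counts of this 7-gene family in Ad_GFP and 49.6% ± 7.1 in shCtrl, and 84.6% ± 1.7 in ANG8 and 90.5% ± 3.2 in shANG8. The sum over the family differed by 0.16 (SE 0.13, adjusted p = 0.639).

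With the counts of each family added up, an alternative chosen after seeing the data, 12 of 14071 genes or families were called in place of 60. Of the 36 called genes with a copy, 4 belonged to families that were still called, and of the 24 without a copy 9 were still called. The fold changes of these 24 were nearly unchanged by the summing, while their adjusted p-values moved. Hmox1, for example, was at 1.11 both times, with an adjusted p of 0.0487 before and 0.0969 after. The median size of the change over the 36 genes was 1.85 on the log2 scale, 0.197 for the sums of their families and 0.206 for the most abundant copy of each. The first of these medians was the same with Rpl27-ps1 at its bound. The sum also passed in 3 families, of which 2 are described. Rpl24 and its copy Gm9385 both fell, by 2.58 and 1.56, and the sum fell by 1.54 (SE 0.16, adjusted p = 0.000242). Rps13-ps2, which held 93.5% ± 2.69 of its family's counts in Ad_GFP, fell by 2.12, and the sum fell by 1.82 (SE 0.21, adjusted p = 0.000581). Gm11808, which is annotated as protein-coding and also has a near-identical copy, was at 4.93, 7.03 and 6.25 CPM in the Ad_GFP livers, 15.5, 18.2 and 30.6 in the ANG8 livers, 5.77, 5.4 and 7.52 in the shCtrl livers and 38, 27.4 and 53.5 in the shANG8 livers. It rose by 2.25 (SE 0.23, adjusted p = 9.53e-05), and all 6 ANGPTL8 libraries were above all 6 control libraries.

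**Figure D4:**
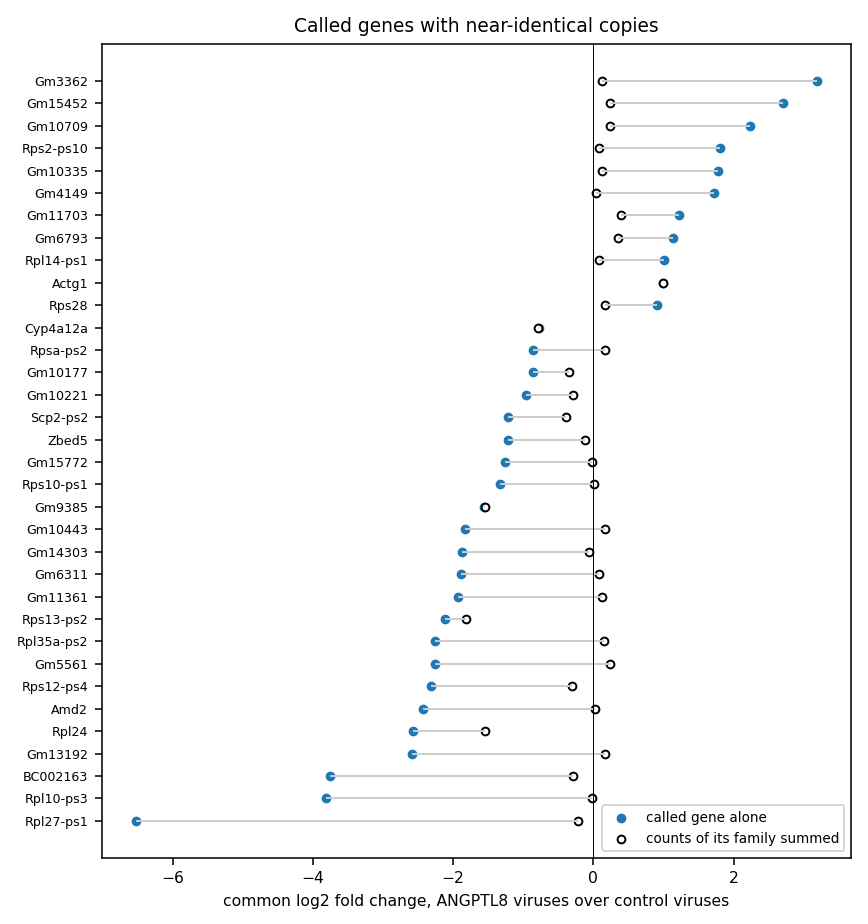
Common log2 fold change (ANGPTL8 viruses over control viruses) of 34 of the 36 called genes with near-identical copies (filled points) and of the summed counts of their families (open points). Gm11808 and 1 other gene are not drawn. Of the open points drawn, most lie near 0, apart from those of Actg1, Cyp4a12a, Rpl24, Gm9385 and Rps13-ps2, and the value of Rpl27-ps1, which was at 0 in both ANGPTL8 groups, is a fitted value.

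The 24 called genes without a copy were 14 that rose and 10 that fell, among them CT010467.1, Lars2 and Gm23935. CT010467.1 and Gm23935 are here because rRNA and miRNA genes were left out of the copy search, so whether they have copies was not tested. Of the 24, only CT010467.1, Ndufb2 and Gm4950 passed the test of the knockdown arm itself. The genes in the next paragraphs that lie outside the naming rule were chosen after their values were seen. The 9 called genes whose smaller arm effect was under 0.5 times the larger were Vat1, Clec1b, Hmox1, Tubb5, Bak1, Mup21 and Egfr, and, among those with a copy, Actg1 and Gm10709. The transcripts of Actn4, Bak1, Vat1, Clec1b, Lsr, Cyp4v3, Mt2 and A230005M16Rik share bases with that of an overlapping gene, so a part of their counts is uncertain. When each library was left out in turn, 35 of the 60 calls were kept in all 12 fits. Among the 24 genes without a copy, Arhgdia, Tubb5, Lsr, Vat1, Aox3 and Hmox1 kept their call in 2 of the 12 fits, Egfr and Clec1b in 3, Marco, Mt2, Nxpe2 and A230005M16Rik in 4, Bak1 and B3galt1 in 5 and Gm23935 in 8. Among the genes with a copy, Gm4149 kept it in 3 fits, Actg1, Gm5561 and Gm15452 in 4, Zbed5 in 6, Cyp4a12a and Gm6793 in 7, Amd2 in 9, Rpl27-ps1 in 10 and Gm10177 in 11.

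Mmp14, a membrane-bound metalloproteinase that cuts collagen, was at 53.2, 52.9 and 73 CPM in the Ad_GFP livers, 180.1, 203 and 97.6 in the ANG8 livers, 54.6, 47.4 and 41 in the shCtrl livers and 109, 72.7 and 82.6 in the shANG8 livers (log2 fold change 1.16, SE 0.19, adjusted p = 0.00734). The ANGPTL8 libraries lay above the controls in both arms, most clearly in ANG8 replicates 1 and 2. Actn4, an actin cross-linking protein, was at 51.9, 45.3 and 51.9 CPM in the Ad_GFP livers, 75.9, 79.7 and 81.5 in the ANG8 livers, 45.9, 51.5 and 55 in the shCtrl livers and 80.5, 75.3 and 90.9 in the shANG8 livers (log2 fold change 0.68, SE 0.10, adjusted p = 0.00427). Its 2 arm effects were 0.67 and 0.70, and all 12 libraries were separated by virus. The effect of the knockdown arm did not pass by itself (adjusted p = 0.0882). Arhgdia, a regulator of small GTPases that act on the actin cytoskeleton, was called at 0.64 (SE 0.13, adjusted p = 0.0458) and Tubb5, a beta tubulin, at 0.75 (SE 0.14, adjusted p = 0.03). In the knockdown arm their differences did not pass the test, at 0.46 (adjusted p = 0.5) and 0.48 (adjusted p = 0.486). Lsr, a receptor for triglyceride-rich lipoproteins and a tight junction protein of liver, was at 11.5, 5.48 and 10.7 CPM in the Ad_GFP livers, 14.7, 13.9 and 21.3 in the ANG8 livers, 7.13, 10.2 and 4.64 in the shCtrl livers and 21, 14.9 and 18.6 in the shANG8 livers (log2 fold change 1.08, SE 0.22, adjusted p = 0.045). The ANGPTL8 and control libraries did not overlap in either arm. Bak1, a pore-forming protein of apoptosis, was called at 0.98 (SE 0.19, adjusted p = 0.0334), with 1.58 in the overexpression arm and 0.37 in the knockdown arm. Actg1, a cytoplasmic actin with near-identical copies, had 1.58 and 0.41. Vat1 had 0.68 (SE 0.14) and Gm4950 had 1.15 (SE 0.19). Bak1 and Actg1 passed the test of the difference between arms (adjusted p = 0.00637 and 0.0115).

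Marco, a scavenger receptor of macrophages, was at 5.38, 2.89 and 4.17 CPM in the Ad_GFP livers, 10.8, 11.8 and 16.3 in the ANG8 livers, 4.28, 8.34 and 4.79 in the shCtrl livers and 37, 9.99 and 10.1 in the shANG8 livers (log2 fold change 1.67, SE 0.32, adjusted p = 0.0343). The highest value, 37 CPM, was that of shANG8 replicate 1. Marco was 1 of 22 tested markers of macrophages and Kupffer cells, the resident macrophages of liver, and the other 21 were not called with edgeR, beside 0.177% of all tested genes that rose. At an unadjusted p under 0.05, 13 of the 22 were higher and 0 lower, beside 6.74% and 5.61% of all tested genes. DESeq2 called 6 of the 22, beside 2.42% of all tested genes. In the overexpression arm 17 of the 22 were called higher, beside 1040 of all 14686 tested genes. In the knockdown arm 0 of the 22 were called higher, beside 9 of the 14686. The 21 included Clec4f (0.49, SE 0.14, adjusted p = 0.149) and Vsig4 (1.0, SE 0.27, adjusted p = 0.124). The summed level of the list was 684 to 950 CPM in Ad_GFP and 1670 to 2130 in ANG8, but 678 to 805 in shCtrl and 561 to 890 in shANG8. Clec1b, a receptor also found on Kupffer cells, was called at 0.99 (SE 0.20, adjusted p = 0.045), with overlapping libraries in the knockdown arm. The part of macrophage number in these results was not tested. In bulk liver more cells of a type and more RNA per cell cannot be told apart. Hmox1, which breaks down heme and is a target of the stress factor NRF2, was at 13.5, 9.25 and 14.4 CPM in the Ad_GFP livers, 39.5, 27.3 and 41.9 in the ANG8 livers, 15.4, 11.6 and 10.9 in the shCtrl livers and 29, 12.1 and 19.3 in the shANG8 livers (log2 fold change 1.11, SE 0.23, adjusted p = 0.0487). It was called in 6 of 20 settings, and shANG8 replicate 2 lay inside the range of shCtrl.

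Of the 10 falls without a copy, 9 had no overlap in either arm, the exception being Aox3. Cyp4v3, a fatty acid hydroxylase, was at 615, 641 and 596 CPM in the Ad_GFP livers, 335, 354 and 273 in the ANG8 livers, 606, 594 and 706 in the shCtrl livers and 303, 413 and 436 in the shANG8 livers (log2 fold change -0.83, SE 0.15, adjusted p = 0.013). All 6 control libraries were above all 6 ANGPTL8 libraries. C6, a component of the complement attack complex, was at 208, 152 and 191 CPM in the Ad_GFP livers, 108, 91.1 and 116 in the ANG8 livers, 261, 238 and 202 in the shCtrl livers and 122, 165 and 125 in the shANG8 livers (log2 fold change -0.79, SE 0.14, adjusted p = 0.0127). Its arm effects were -0.81 and -0.77, with no overlap within either arm. The effect of the knockdown arm did not pass by itself (adjusted p = 0.16). Mup21, a major urinary protein, was at 209, 76 and 85.7 CPM in the Ad_GFP livers, 20.6, 20.1 and 21.5 in the ANG8 livers, 231, 217 and 212 in the shCtrl livers and 100, 102 and 78.5 in the shANG8 livers (log2 fold change -1.9, SE 0.29, adjusted p = 0.00595). The fall was -2.57 in the overexpression arm and -1.23 in the knockdown arm (adjusted p of the difference = 0.0623). Egfr, the receptor of epidermal growth factor, was at 436, 286 and 300.1 CPM in the Ad_GFP livers, 75.3, 100.3 and 98.3 in the ANG8 livers, 691, 676 and 553 in the shCtrl livers and 411, 536 and 207 in the shANG8 livers (log2 fold change -1.32, SE 0.26, adjusted p = 0.0343). The shANG8 libraries were below those of shCtrl, with replicate 2 of shANG8 closest at 536 against 553 CPM. Aox3, an aldehyde oxidase, had -0.99 (SE 0.20, adjusted p = 0.0409), with overlap in the knockdown arm. B3galt1, a galactosyltransferase, had -0.95 (SE 0.18), Nxpe2 had -0.66 (SE 0.13) and the antisense gene A230005M16Rik had -2.29 (SE 0.47).

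Ndufb2, a subunit of complex I, was at 18.7, 21.5 and 21.3 CPM in the Ad_GFP livers, 8.26, 8.77 and 6.92 in the ANG8 livers, 19.1, 18 and 25 in the shCtrl livers and 12.3, 9.05 and 8.72 in the shANG8 livers (log2 fold change -1.2, SE 0.15, adjusted p = 0.000379). All control libraries were at 18 CPM or more and all ANGPTL8 libraries under 13 CPM. Its transcript shares 146 bases with that of Braf on the genome, and since the strand setting of the counting is unknown here, reads of the 2 cannot be told apart there. Braf itself had a common difference of 0.01. Mt2, a metal-binding stress protein, was at 9.87, 33.5 and 12 CPM in the Ad_GFP livers, 2.39, 1.31 and 3.15 in the ANG8 livers, 1.49, 10.7 and 13 in the shCtrl livers and 0.0758, 0.315 and 0 in the shANG8 livers (log2 fold change -3.83, SE 0.68, adjusted p = 0.0329). Its libraries ranged widely within the control groups.

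**Figure D5:**
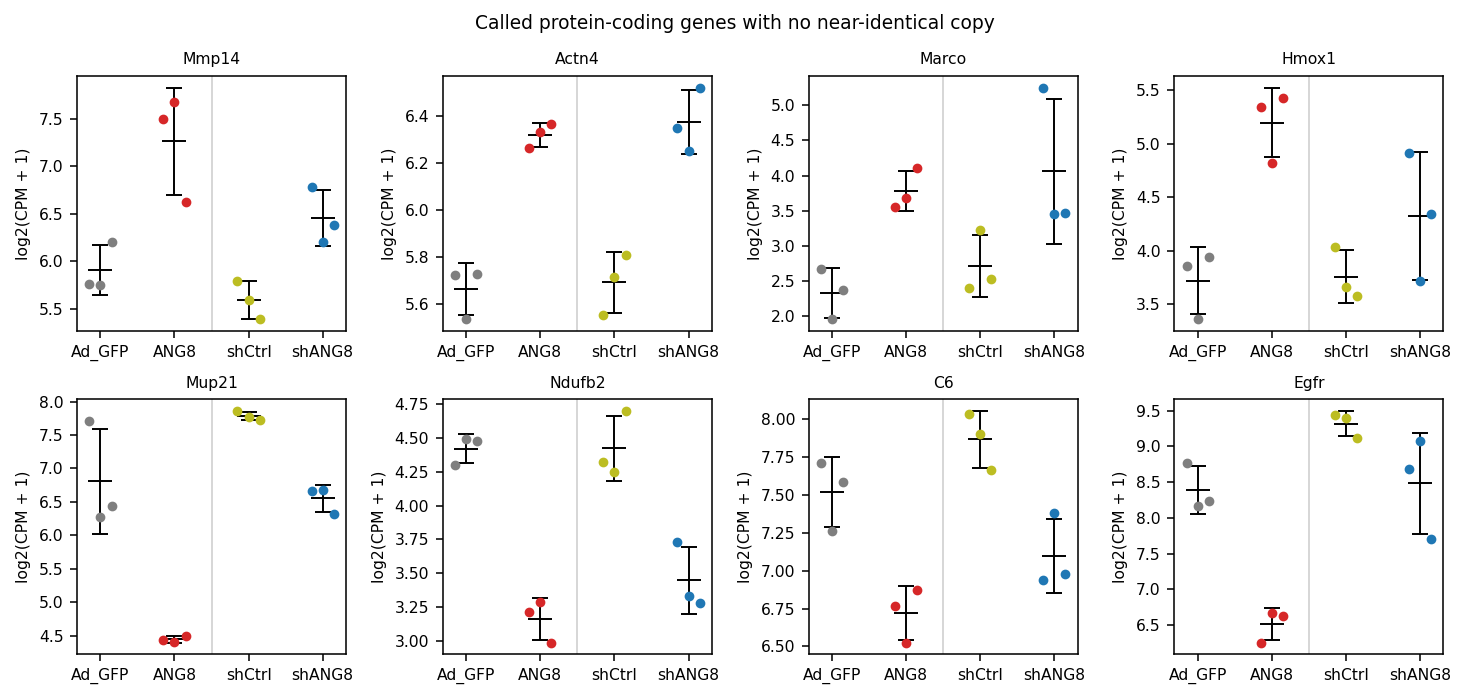
Levels of 8 called protein-coding genes without a near-identical copy, as log2(CPM + 1), in the 4 groups (points, single libraries; bars, mean ± SD, n = 3; the vertical axes differ between panels). Mmp14, Actn4 and Marco rise and Mup21, Ndufb2, C6 and Egfr fall with no overlap within either arm, while shANG8 replicate 2 overlaps with shCtrl for Hmox1.

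Across 44 gene lists of liver pathways, stress responses and cell types, 7 lists held a called gene and 10 of 847 tested members were called, beside 0.409% of all tested genes, the share against which the counts of each list are to be read. In the other 37 lists, 0 of 665 members passed with edgeR. At an unadjusted p under 0.05, 48 of these were higher and 47 lower, beside 6.74% and 5.61% of all tested genes, and DESeq2 called 14 and voom 0. Male-biased liver genes held 2 falls and 0 rises among 21 tested: C6 and Cyp4a12a, beside 0.232% of all tested genes that fell. At an unadjusted p under 0.05, 14 of the 21 were lower and 0 higher. DESeq2 called 10 of the 21, beside 2.42% of all tested genes. In the overexpression arm 16 of the 21 were called lower, beside 938 of all 14686 tested genes. In the knockdown arm 0 of the 21 were called lower, beside 19 of the 14686, and at such a share 0 of 21 tells little. Cyp4a12a, a fatty acid hydroxylase, was at 359.7, 349.8 and 443 CPM in the Ad_GFP livers, 216, 234 and 249.8 in the ANG8 livers, 471, 452 and 368 in the shCtrl livers and 256, 184 and 287 in the shANG8 livers (log2 fold change -0.77, SE 0.15, adjusted p = 0.026). Cyp4a12a has a near-identical copy, Cyp4a12b (-0.91, SE 0.20, adjusted p = 0.0591), and the sum of both gave -0.79 (adjusted p = 0.0564). The list median was -1.16 for the common effect, -1.44 in the overexpression arm and -0.28 in the knockdown arm, beside a common median of 0.003 for all tested genes. Of 69 cytosolic ribosomal protein genes, Rps28 rose and Rpl24 fell, and the list median was 0.10. Acute phase proteins (27 tested) and glucocorticoid-responsive genes (16 tested) each held 1 fall, Mt2 in both lists. NRF2 targets held 1 rise among 24, Hmox1, with a list median of 1.43 in the overexpression arm and -0.155 in the knockdown arm. In 28 of the 44 lists the medians of the arms had opposite signs, while 45.8% of all tested genes had the same direction in both arms. Some of these medians were near 0, such as 0.015 in the knockdown arm for the growth hormone and IGF axis, and there the sign tells little.

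Lists close to the known role of ANGPTL8 held no gene called for the common effect. Of 16 tested genes of the ANGPTL family, lipases and their regulators, 0 were called. Lpl, lipoprotein lipase, was at 78.1, 67.2 and 82.4 CPM in the Ad_GFP livers, 261, 271 and 211 in the ANG8 livers, 103, 65.8 and 61.2 in the shCtrl livers and 90.9, 61.8 and 68.1 in the shANG8 livers (log2 fold change 0.83, SE 0.29, adjusted p = 0.274). It rose in the overexpression arm (1.71, adjusted p = 0.000138), the knockdown arm gave -0.06, and the arms differed by 1.77 (SE 0.298, adjusted p = 0.00301). Lipc, hepatic lipase, had -1.89 in the overexpression arm and 0.03 in the knockdown arm. De novo lipogenesis (22 tested) held 0 called genes, with medians of -1.25 and 0.23 in the overexpression and knockdown arms. Angptl8 itself was at 96.8, 80.4 and 90 CPM in the Ad_GFP livers, 165, 314 and 172 in the ANG8 livers, 339.9, 391 and 167 in the shCtrl livers and 144, 143 and 79.2 in the shANG8 livers. It was above its control in every ANG8 library and below its control in every shANG8 library, so that the common difference was -0.01 (SE 0.48, adjusted p = 0.998). The overexpression arm gave 1.28 (adjusted p = 0.0201). The knockdown arm gave -1.29, which did not pass (adjusted p = 0.235). The exact permutation test of the common difference gave p = 0.995, and the arms differed by 2.58 (SE 0.464, adjusted p = 0.007).

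Genes called in 1 arm were then read in the other arm. The fold change of an arm came from its own 6 libraries, while the scaling, the filter and the estimate of the spread were shared by all 12, and with each arm fitted alone 2123 genes were called in the overexpression arm and 23 in the knockdown arm. Of the 1978 genes called in the overexpression arm, 37.8% had the same direction in the knockdown arm, beside 45.8% of all tested genes. This share was 56.2% for the 201 of them with a near-identical copy and 35.7% for the 1777 without. A separation of the knockdown libraries in the same direction was met by 25.4% of the former and 4.05% of the latter. In the opposite direction it was met by 8.96% and 12.7%. Among all tested genes, whether called or not, the libraries were separate in both arms upward in 0.79%, downward in 1.01% and in opposite directions in 2.98%. These shares need separation in both arms at once, so they are no like background for the shares of called genes above. Of the 28 genes called in the knockdown arm, 23 had the same direction in the overexpression arm, and 22 were also called there in that direction. Of these 28, 21 had a near-identical copy, of which 20 moved the same way in the overexpression arm. Of the 7 without a copy 3 did, CT010467.1, Ndufb2 and Gm4950, of which CT010467.1 was left out of the copy search. Across all tested genes, which are not independent replicates, the correlation of the 2 arm effects was -0.0552 (Pearson) and -0.123 (Spearman).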

How the data were processed

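The members and the gene lists were chosen with earlier results of these data known. Per the labels' protocols, total RNA was taken with Trizol and libraries were made with an NEBNext Ultra kit. The deposited table holds unnormalized counts of reads for each gene. CASAVA 1.8.2 and, for counting, featureCounts 1.5.0-p3 appear in the submitters' processing notes, as does mm9. For the aligner, strandedness and reads with several matches, nothing is given in the sources used here. Coordinates are those of the deposited table, which are GRCm38: 98.3% of 54495 genes matched GENCODE vM21 exactly.

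Counts were fitted with edgeR 4.0.16 in R 4.3.3 (filterByExpr, TMM scaling, robust quasi-likelihood) on all 12 libraries, with arm as a block for the common effect and 1 mean per group for the arm effects. Common differences are log2 fold changes, and the SE is the size divided by the square root of F. P-values were adjusted over 14686 genes by Benjamini-Hochberg. The fits were tested on simulated data. Replicates differed by more than sampling noise (chi-square 13.6 to 143 per gene), so none was counted as a repeat. Copies were found with blastn 2.17.0 on GENCODE vM21 transcripts, the longest of each gene, leaving out small RNAs, among them rRNA and miRNA genes. Genes named were Angptl8, CT010467.1, the 5 smallest p, up to 12 rises and 12 falls without overlap and a mean log2 CPM of at least 1, and up to 3 members per list; a few of them are not reported here. Alternatives included other scalings, no filter, DESeq2 1.42.0, voom (limma 3.58.1), other designs, single arms and leaving out each library.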

Additional observations from a re-analysis of the deposited data

Results flagged for a closer look

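In several genes the arm effects differed by the test of the difference itself (edgeR, overexpression minus knockdown, adjusted over all tested genes). Among called genes this was so for Bak1, at 1.21 (SE 0.23, adjusted p = 0.00637; 1.58 against 0.37), and Actg1, at 1.17. Among genes that were not called for the common effect, Angptl8 differed by 2.58, Lpl by 1.77, Lipc by -1.92, Aif1, a macrophage gene, by 1.51, Evl, an actin regulator, by 1.18 and Cyp4a12b by -1.02. In Bak1 and Actg1 the sign was the same in both arms, so that the arms differed in size.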

How the results depend on the processing

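The 60 calls of the common effect became 747 without a filter on low counts, 355 with DESeq2, 453 as the average of the arm effects, 2123 in the overexpression arm alone, 23 in the knockdown arm alone and 12 with near-identical copies summed. The 51 genes that shifted alike became 203, 184, 126 and 11 without a filter, with DESeq2, as the average and with copies summed. Leaving out 1 library gave 40 to 173 calls and 39 to 115 alike genes, the highest without shANG8 replicate 2. The overexpression arm gave 995 to 2164 calls so (main 1978), the knockdown arm 21 to 39 (main 28) and the difference 473 to 1227 (main 972). The knockdown arm gave 132 without a filter, 102 with DESeq2, 47 with the mitochondrial share as a covariate and 5 with copies summed; the difference gave 1510 without a filter and 1541 with DESeq2. The share of overexpression calls with the same direction in the knockdown arm was 34% with the mitochondrial covariate and 32% to 47.6% without 1 library; the reverse share was 60.6% without a filter, 96% with voom and 56.4% to 90.9% without 1 library. The mitochondrial share difference ranged from 0.897 to 6.23 percentage points. With copies summed, the family of Gm6311 gave 0.085, that of Gm11361 0.12, that of Rpl35a-ps2 0.15 and that of Rps10-ps1 0.0090, the opposite sign to the gene itself. In Ad_GFP these genes held 1.66%, 4.74%, 5.86% and 33% of their family's counts. The sums are therefore mostly counts of other members and no reversal of the genes. Angptl8 gave 1.28 in the overexpression arm alone. The cause of these changes was not tested. With the replicate number as a block, the common effect gave 65 calls, of which 53 were among the 60, the knockdown arm 55 and the difference 1550. The labels give the numbers no shared source, and not every pair was over 0.1: deviations of same-numbered libraries correlated at -0.0667 to 0.149 in the overexpression arm and 0.0345 to 0.186 in the knockdown arm. Over all group pairs 15 of 18 were positive, at up to 0.255, with Ad_GFP and shANG8 at 0.172 to 0.255, and 7 of 12 libraries correlated best with their own number in every other group, a hint of shared deviations from the data alone. Of the 60 genes, 35 were called in every one of the 20 settings that tested them. Genes under 1 CPM rest on few counts, and depth limits their folds.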
